A study of Homo sapiens with 4 samples.

Results

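The fibroblast growth factor (FGF) genes examined here were 10 genes chosen by symbol, namely the ligands FGF1, FGF2, FGF5 and FGF7, the carrier protein FGFBP1 and the receptors FGFR1, FGFR2, FGFR3, FGFR4 and FGFRL1. All 10 were found under their current symbols, each with 1 probe set, among 19555 genes and 29085 probe sets. RNA came from 4 samples of the established human glioma line U87MG, hybridised to Affymetrix Human Gene ST arrays. Of these, 2 samples came from a clone with the construct APN_wt_EGFP, the wild-type form of membrane alanyl-aminopeptidase (CD13/APN), and 2 from a clone with APN_L243P_EGFP, whose APN the labels call inactive. The replicates of a genotype came from independent experiments, and growth was stated to be comparable. Both groups share the line and a construct with EGFP in its name, and no untransfected cells were analysed here. Since 1 clone stands for each genotype, effects of the clone and of the genotype cannot be told apart, and the p-values reflect only how far experiments on the same clone differed. The comparison asks which transcripts differ between glioma cells with functional and inactive APN.

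FGFs are secreted proteins that bind heparan sulfate chains at the cell surface and, together with them, receptor tyrosine kinases of the FGFR family. Active receptors phosphorylate the adaptor FRS2, which feeds the RAS and MAP kinase cascade, and Sprouty proteins and dual-specificity phosphatases are induced in turn and dampen the signal. FGF2 is a mitogen of glioma cells and a classical factor for endothelial cells, while FGF7 acts on the splice form of FGFR2 that epithelial cells make. FGFRL1 binds FGFs but lacks the tyrosine kinase domain of the other receptors. A single probe set per gene does not separate splice forms.

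The promoters of 6 of these genes are shown because they differ in the feature that the brightness of the probe sets was set beside, the density of CpG dinucleotides. Each is the 250 bases before the first start site that RefSeq lists for the gene (build GRCh38.p14), 5′ to 3′ on the gene's strand, with CpG in capitals. FGF2 lies at chr4:122826581-122826830 (plus strand), FGF5 at chr4:80266338-80266587 (plus) and FGFR3 at chr4:1793043-1793292 (plus). FGFR2 lies at chr10:121598445-121598694 (minus), FGF7 at chr15:49422992-49423241 (plus) and FGFBP1 at chr4:15938741-15938990 (minus).
FGF2: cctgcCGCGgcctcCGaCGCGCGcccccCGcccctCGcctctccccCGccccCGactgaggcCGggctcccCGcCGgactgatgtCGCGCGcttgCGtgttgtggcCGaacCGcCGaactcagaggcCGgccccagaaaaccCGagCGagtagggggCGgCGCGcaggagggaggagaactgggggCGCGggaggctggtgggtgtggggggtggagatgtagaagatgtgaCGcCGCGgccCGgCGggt
FGF5: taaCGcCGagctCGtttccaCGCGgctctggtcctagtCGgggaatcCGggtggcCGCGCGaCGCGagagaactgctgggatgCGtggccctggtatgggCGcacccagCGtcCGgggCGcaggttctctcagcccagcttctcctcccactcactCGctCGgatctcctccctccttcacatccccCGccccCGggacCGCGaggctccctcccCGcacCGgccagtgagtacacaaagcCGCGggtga
FGFR3: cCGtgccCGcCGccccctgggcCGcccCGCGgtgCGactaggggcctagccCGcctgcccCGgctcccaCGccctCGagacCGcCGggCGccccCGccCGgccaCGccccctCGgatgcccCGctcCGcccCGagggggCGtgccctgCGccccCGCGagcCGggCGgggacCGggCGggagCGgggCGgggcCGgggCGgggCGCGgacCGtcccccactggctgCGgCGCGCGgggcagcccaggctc
FGFR2: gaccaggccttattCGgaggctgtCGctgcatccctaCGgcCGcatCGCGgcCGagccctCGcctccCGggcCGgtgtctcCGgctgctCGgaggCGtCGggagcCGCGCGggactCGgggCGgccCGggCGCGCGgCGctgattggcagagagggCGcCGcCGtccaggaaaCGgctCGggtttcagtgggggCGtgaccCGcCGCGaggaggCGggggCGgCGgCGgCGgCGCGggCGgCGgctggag
FGF7: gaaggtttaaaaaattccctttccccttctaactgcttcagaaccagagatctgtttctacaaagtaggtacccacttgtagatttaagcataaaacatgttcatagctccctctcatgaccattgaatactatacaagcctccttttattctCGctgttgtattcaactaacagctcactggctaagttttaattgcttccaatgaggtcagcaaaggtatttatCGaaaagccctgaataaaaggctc
FGFBP1: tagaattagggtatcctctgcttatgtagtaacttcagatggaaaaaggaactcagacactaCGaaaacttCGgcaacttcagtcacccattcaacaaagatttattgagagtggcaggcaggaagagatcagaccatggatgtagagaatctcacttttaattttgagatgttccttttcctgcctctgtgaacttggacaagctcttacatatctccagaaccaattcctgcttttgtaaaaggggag
The FGF2 and FGF5 promoters held 33 and 27 CpG, those of FGFR3 and FGFR2 40 and 42, and those of FGF7 and FGFBP1 only 2 each. Over 27305 promoters of the same length the median was 11, and as many CpG as in FGF2 were found in 7.9% of them. FGF1 also had 2 CpG at its first start site, FGFR4 had 24 and FGFRL1 had 21, and no promoter of FGFR1 was used here. The GC box GGGCGG, searched on both strands, occurred 3 times in FGF2, once in FGF5, 8 times in FGFR3, 3 times in FGFR2 and not in FGF7 or FGFBP1, and 42.3% of all promoters held at least 1. The TATA box letters TATAAA were in none of the 6 windows, against 11.1% of all promoters. A letter match does not show that a factor binds there, and other start sites of FGF5 and FGFR2 were poorer in CpG, with 3 at the second site of each.

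The ANPEP probe set, which does not separate the construct from the cells' own gene or the 2 forms from each other, was at 8447 and 9103 in wild type and 6439 and 7122 in L243P. Intensities are the authors' normalized values on a linear scale, with array medians between 46 and 50. Because no detection calls were used, 358 olfactory receptor genes, which glioma cells are not expected to transcribe, served as a yardstick for dim probe sets. Their median was 11 to 13 on the 4 arrays and their 95th percentile between 29.2 and 32. This yardstick was chosen after the values had been seen, and probe sets differ in sequence, so it describes brightness and is no detection limit. Marker lists of 6 cell classes were read against it, with sums taken over all measured markers of a list, and the part of these markers in the FGF values was not tested.

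Of 9 glial markers measured, 6 lay above the yardstick's 95th percentile on all 4 arrays, with sums of 8371 to 10055 in wild type and 9591 to 10636 in L243P. Vimentin (VIM, between 6134 and 8297) and CD44 (between 1889 and 2240), which mesenchymal glioma cells express, made up most of these sums. SLC1A3 (between 86 and 133), NES (between 62 and 112), OLIG2 (between 39 and 48) and SOX2 (between 31 and 44) were the other 4, while S100B (between 17 and 20) and AQP4 (between 12 and 20) were below it, and GFAP was not analysed here. The groups did not overlap for SLC1A3 (log2 change 0.56), NES (0.67) and FABP7 (-0.64), and none of these was called (adjusted p = 0.12, 0.12 and 0.34, limma). That is 2 of 9 with L243P higher and 1 of 9 with L243P lower, against 17.0% and 20.9% of all genes.

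Of 7 fibroblast and pericyte markers, 3 lay above on all 4 arrays, with sums of 1120 to 1174 in wild type and 1088 to 1103 in L243P. This was the one marker list with a called gene (1 of 7), where 0.967% of all genes were called. DCN (decorin, a matrix proteoglycan) was at 40 and 36 in wild type and 13 and 12 in L243P (log2 change -1.60, SE 0.14, adjusted p = 0.015, limma). Its L243P values lay near the olfactory receptor medians of 11 and 12 on those arrays, which limits what the size of the change can show. The collagen gene COL1A1 was at 210 and 209 and at 275 and 285 (0.42, adjusted p = 0.12), and COL1A2 had a change of -0.18. LUM was at 36 and 42 in wild type and 25 and 32 in L243P (-0.46, adjusted p = 0.40, limma). Of the 7, 1 did not overlap with L243P higher and 3 with L243P lower, against 17.0% and 20.9% of all genes.

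Of 7 immune markers, 2 lay above on all 4 arrays, namely CSF1R (between 43 and 54) and CD68, a lysosomal protein best known from macrophages. CD68 was at 1932 and 1871 in wild type and 2406 and 2569 in L243P (log2 change 0.39, adjusted p = 0.11, limma) and made up most of the sums of 2030 to 2083 and 2543 to 2723. The leukocyte marker PTPRC was at 8 or 9. Of 7 endothelial markers, 3 lay above (CLDN5, EGFL7 and TIE1), with sums of 302 to 338 in wild type and 305 to 329 in L243P, and VWF was between 18 and 22. KDR was at 37 and 33 in wild type and 21 and 25 in L243P (-0.61, adjusted p = 0.20, limma). TEK went the other way, at 18 and 15 in wild type and 23 and 24 in L243P (0.52, adjusted p = 0.25, limma). All 4 TEK values were below the yardstick's 95th percentile, and the median change of the 7 endothelial markers was 0.03. Of 8 epithelial markers, 3 lay above (KRT8, KRT14 and KRT18), with sums of 312 to 340 and 312 to 404, while EPCAM, CDH1 and the splicing factor ESRP1 were at 22 or lower. KRT18 was at 112 and 102 in wild type and 126 and 178 in L243P (0.49, adjusted p = 0.38, limma), and the median change of the 8 was -0.07. Of 8 neuronal markers, 6 lay above, with sums of 943 to 1072 and 1008 to 1027. SYT1 was at 33 and 35 in wild type and 56 and 45 in L243P (0.56, adjusted p = 0.23, limma), and the median change of the 8 was -0.04. Groups did not overlap with L243P higher for 1 immune, 1 endothelial, 1 epithelial and 2 neuronal markers, against 17.0% of all genes. With L243P lower these counts were 1, 2, 2 and 1, against 20.9% of all genes.

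Of the FGF genes, 0 of 10 passed the test between the clones (limma with an intensity trend and robust prior, adjusted p under 0.05 over all rows), against 189 of 19555 genes, or 0.967%. Of those 189, 84 (0.43%) were higher and 105 (0.537%) lower in L243P, and with each array centred on its median 282 were higher and 223 lower, or 2.58% of genes in all. At an unadjusted p under 0.05, 2 of the 10 were found, FGFR1 and FGF5, against 13.5% of all genes. The 2 groups did not overlap for 6 of the 10, in L243P lower for FGF2, FGF5, FGFBP1 and FGFR1 and higher for FGF1 and FGFR3. Over all genes 38.0% did not overlap, 20.9% in L243P lower and 17.0% in L243P higher. The median log2 change of the 10 was -0.05, against -0.02 over all genes. All 10 95% confidence intervals lay inside a 2-fold change in either direction, and the widest bound, for FGF1, was 1.61-fold. These intervals rest on 2 samples a group and on a spread shared across genes by the fit. Those of FGF1, FGF7, FGFBP1 and FGFR2 describe signals near those of the olfactory receptor genes. For these genes the intervals bound the intensity ratio and not the change in expression.

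**Figure D1:**
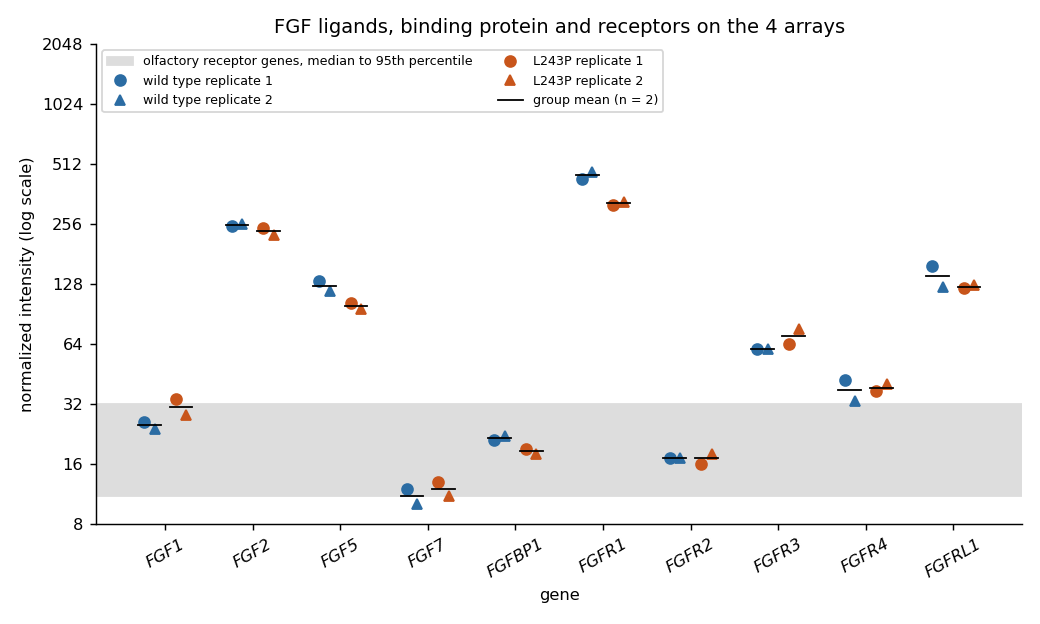
Normalized intensity (log scale) of each of the 10 genes on the 4 arrays, with circles for replicate 1, triangles for replicate 2 and bars for group means of 2 samples. FGFR1, FGF2, FGF5, FGFRL1, FGFR3 and FGFR4 lie above the grey band of olfactory receptor genes on every array, and FGF7, FGFBP1 and FGFR2 lie within or below it.

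In bulk RNA, a lower intensity cannot be told apart as fewer cells that express a gene or less RNA per cell. Probe sets of different genes differ in sequence, so their intensities are not compared as levels of expression. Among the ligands, FGF2 (basic FGF) had the brightest probe set. It was at 249 and 255 in wild type and 245 and 224 in L243P. Both L243P samples were below both wild-type samples, but the nearest values differed by only 4 units. The log2 change of L243P over wild type was -0.11 (SE 0.093, 95% confidence interval -0.33 to 0.12, adjusted p = 0.77, limma), so the interval reached at most a level 1.26-fold lower. Its intensity was at least that of 81.1% to 83.4% of the probe sets on the 4 arrays.

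FGF5, a ligand that ends the growth phase of hair follicles in mice and was also isolated as an oncogene, was at 133 and 118 in wild type and 102 and 96 in L243P. The L243P samples were both lower, and the gap between the groups was about as large as that between the wild-type samples. The means were 125.5 ± 10.6 and 99.0 ± 4.24 (SD, n = 2 each). The log2 change was -0.34 (SE 0.12, 95% confidence interval -0.63 to -0.05), and it did not pass (adjusted p = 0.34, limma). The interval by itself lay below 0, at between 1.04-fold and 1.55-fold lower, but 9.8% of all genes had an unadjusted p as low.

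FGF1 (acidic FGF), which binds every FGFR, was dim. It was at 26 and 24 in wild type and 34 and 28 in L243P, and of these only the 34 lay above the yardstick's 95th percentile. The groups did not overlap, with a log2 change of 0.30 (SE 0.15, 95% confidence interval -0.07 to 0.68, adjusted p = 0.54, limma). FGF7 (keratinocyte growth factor) was at 12 and 10 in wild type and 13 and 11 in L243P. These values sat near the middle of the olfactory receptor genes and interleaved between the groups (log2 change 0.13, SE 0.16, adjusted p = 0.85). FGFBP1, a carrier that frees FGFs from the matrix, was at 21 and 22 in wild type and 19 and 18 in L243P. All 4 of its values were below the yardstick's 95th percentile, and the groups lay 2 units apart (log2 change -0.22, SE 0.13, adjusted p = 0.62).

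FGFR1, a receptor with affinity for FGF1, FGF2 and FGF5 in its mesenchymal splice form, was the brightest and most different of the 10 genes. It was at 432 and 464 in wild type and 317 and 331 in L243P. The groups were clearly apart, since the lowest wild-type sample exceeded the highest L243P sample by 101 units. The means were 448.0 ± 22.6 and 324.0 ± 9.90 (SD, n = 2 each), 1.38-fold lower in L243P (95% confidence interval 1.20-fold to 1.60-fold). The log2 change was -0.47 (SE 0.085), with an unadjusted p of 0.0015 and an adjusted p of 0.096 (limma), which missed the threshold. It ranked 391 by p among all genes. Without the dimmer 50% of rows, where 3.68% of the genes left were called, FGFR1 passed with the same log2 change (adjusted p = 0.039, limma). Over 11 alternatives its adjusted p ranged from 0.039 to 0.65, so whether it is called depends on the setting.

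FGFR2 was at 17 and 17 in wild type and 16 and 18 in L243P. Its values lay inside the range of the olfactory receptor genes, and the groups had the same mean of 17. The log2 change was 0.00 (SE 0.13, 95% confidence interval -0.33 to 0.33, adjusted p = 1.0, limma). Its CpG-rich first promoter, shown above, thus belonged to a dim probe set, while the other dim probe sets with an available promoter (FGF1, FGF7 and FGFBP1) had 2 CpG each at the first start site.

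FGFR3, a receptor that is fused to TACC3 in a subset of glioblastomas, was at 60 and 60 in wild type and 64 and 76 in L243P. Both L243P samples were higher, and they differed more from each other than the lower of them did from wild type. The log2 change was 0.22 (SE 0.14, 95% confidence interval -0.12 to 0.56, adjusted p = 0.66, limma). FGFR4 was at 42 and 33 in wild type and 37 and 40 in L243P, just above the yardstick. Its L243P samples lay between the wild-type ones (log2 change 0.05, SE 0.16, adjusted p = 0.97). FGFRL1, the receptor without a kinase domain, was at 157 and 123 in wild type and 122 and 126 in L243P. The groups overlapped, and the distance came from the first wild-type sample (log2 change -0.16, SE 0.14, adjusted p = 0.77, and 0.01 without that sample).

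**Figure D2:**
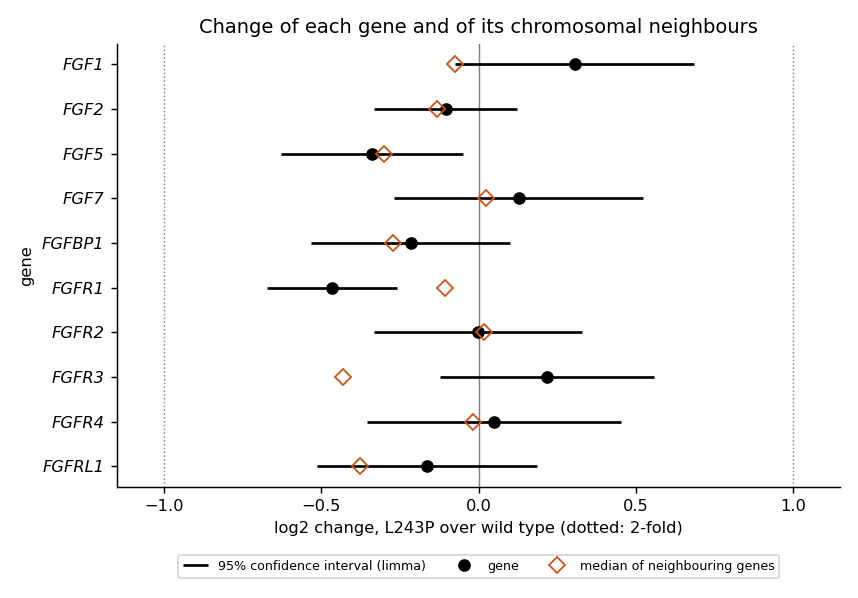
Log2 change of L243P over wild type for each of the 10 genes (points) with its 95% confidence interval from limma (lines), and the median change of up to 20 tested genes on each side (open diamonds). The FGFR1 and FGF5 intervals lie below 0, all lie inside the dotted lines at 2-fold, and the FGFR3 point lies 0.65 above its diamond.

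Of the 10 genes, 5 lie on chromosome 4, where transcripts were lower in L243P more widely. The median log2 change over 688 tested genes of chromosome 4 was -0.14, the lowest of 23 chromosomes, with the other chromosomes between -0.07 and 0.04. On chromosome 4, 39 genes were called lower and 1 higher, or 5.67% called lower, against 0.362% on the other chromosomes. The part of this shift in the values of single genes was not tested. The FGF5 change of -0.34 was close to that of its 40 neighbours (20 on each side in RefSeq order), whose median was -0.30 with 33 of 40 below 0. FGFBP1 (-0.22) and FGF2 (-0.11) were likewise within 0.06 and 0.03 of their neighbours' medians of -0.27 and -0.13.

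FGFR3 and FGFRL1 lie near each other on chromosome 4, with 10 tested genes between them, and their windows share 30 genes. Around FGFR3, 37 of 40 neighbours were below 0, with a median of -0.43 and a highest value of 0.14. FGFR3, at 0.22, was the highest of the 41 genes in its window and lay 0.65 above the median. FGFRL1 (-0.16) lay 0.21 above the median of its 35 neighbours (-0.38). On chromosome 8, FGFR1 was the lowest of the 41 genes in its window. Its neighbours had a median of -0.11, with 27 of 40 below 0 and none called, and FGFR1 lay 0.36 below that median. Over 625 tested genes of chromosome 8 the median was -0.07, the lowest value among the chromosomes other than 4. These positions within a window are descriptions with no test.

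**Figure D3:**
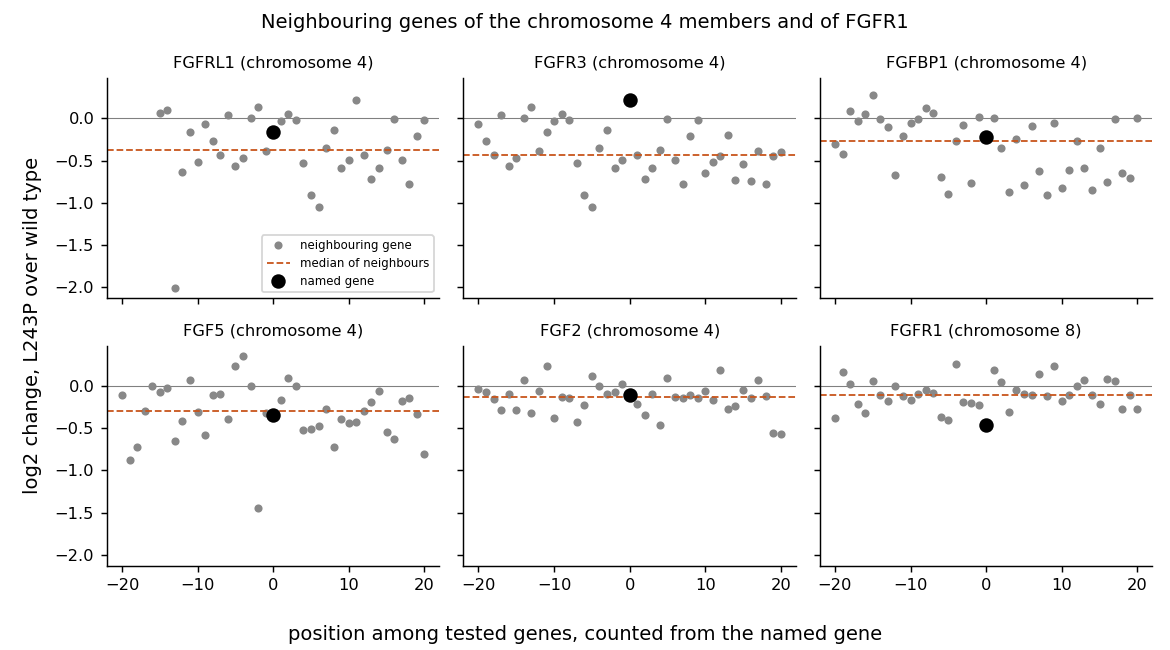
Log2 change of L243P over wild type (vertical axis) for the genes around the 5 chromosome 4 members and FGFR1, by position among tested genes (horizontal axis), with the named gene in black and the median of its neighbours dashed. FGFR3 is the highest and FGFR1 the lowest gene of its window, while FGF5, FGFBP1 and FGF2 lie near the dashed line.

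The rest of the pathway was read from 6 lists of other genes, of which 99 of 103 were measured. Of these 99, 0 were called higher and 1 lower, or about the 0.967% found over all genes, and their median log2 change was -0.04. The gene called lower was CCND1 (cyclin D1), which mitogens induce through MAP kinases. It was at 1743 and 1537 in wild type and 725 and 729 in L243P (log2 change -1.17, SE 0.086, adjusted p = 0.011, limma). The change stayed between -1.26 and -1.08 over the alternatives, but its call was lost with limma's default prior (adjusted p = 0.26), under a block for replicate number (adjusted p = 0.65) and when any 1 sample was left out, settings in which no gene at all was called. It was also the one gene of these lists in the authors' deposited summary of 224 selected genes, which held 0 of the 10 FGF genes.

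The 13 other secreted FGFs measured were not called, with changes between -0.30 and 0.14 and a median of -0.16. FGF4, an embryonic ligand, was at 159 and 128 in wild type and 109 and 124 in L243P (log2 change -0.30, SE 0.15, adjusted p = 0.52). FGF8 and FGF22 had changes of -0.16 and -0.03. The 4 intracellular FGFs, which bind sodium channels and are not secreted, had a median of 0.00, and FGF13 was at 145 and 161 and at 143 and 148.

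Of 20 binding proteins and co-receptors, 0 were called (median -0.02). The glypican GPC6, a heparan sulfate carrier, was at 583 and 474 in wild type and 683 and 650 in L243P (log2 change 0.34, SE 0.11, adjusted p = 0.33), and syndecan SDC1 and carrier FGFBP3 had changes of 0.22 and 0.20. NCAM1, an adhesion molecule that can bind FGF receptors, was at 103 and 83 in wild type and 54 and 65 in L243P. Its log2 change of -0.64 (SE 0.17) did not pass (adjusted p = 0.21, limma) but did so narrowly after median centring (adjusted p = 0.0497), with a range of 0.0497 to 0.69 over the alternatives. The 21 enzymes that build and trim heparan sulfate were not called either (median -0.05, changes between -0.24 and 0.29). By the naming rule, given with the methods, the 4 described are HS3ST3B1 (0.29), EXT2 (-0.24), HS3ST2 (-0.22) and XYLT1 (0.20).

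Of 21 signal transducers, 0 were called (median 0.04). The adaptor SHC1 was at 570 and 583 in wild type and 725 and 728 in L243P (log2 change 0.33, SE 0.072, adjusted p = 0.14, limma). The kinase MAP2K1 was at 610 and 718 in wild type and 522 and 497 in L243P (log2 change -0.38, SE 0.10, adjusted p = 0.22). The changes of the kinases MAPK3 and PIK3CA were 0.26 and 0.17. SHC1, MAP2K1 and MAPK3 had groups that did not overlap, and those of PIK3CA overlapped. Over the 21 genes, 3 did not overlap with L243P higher and 2 with L243P lower, against 17.0% and 20.9% of all genes.

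The 20 targets and feedback genes had a median of -0.12, and apart from CCND1 none was called. The groups did not overlap for 9 with L243P lower and 3 with L243P higher, against 20.9% and 17.0% of all genes. At an unadjusted p under 0.05 (limma), 7 of the 20 were found, against 13.5% of all genes. The Sprouty, phosphatase, EGR1 and ETV genes that follow were singled out after their values were seen. All 4 Sprouty genes had both L243P samples below both wild-type samples, a pattern shown by 20.9% of all genes. SPRY4 was at 101 and 85 in wild type and 61 and 70 in L243P (log2 change -0.50, SE 0.15, adjusted p = 0.25, limma). SPRY2 was at 541 and 496 and at 467 and 443 (log2 change -0.19), and SPRY1, on chromosome 4, at 48 and 50 and at 37 and 40 (-0.35). SPRY3 was dim, at 17 on both wild-type arrays and 14 on both L243P arrays. Among the other genes of the list, changes went both ways. The phosphatase DUSP6, which acts on ERK, was at 467 and 381 in wild type and 533 and 562 in L243P (log2 change 0.38, adjusted p = 0.28, limma). DUSP5 was at 366 and 329 and at 285 and 276 (-0.31, adjusted p = 0.27). EGR1 was at 218 and 226 in wild type and 138 and 183 in L243P (-0.48, adjusted p = 0.28, limma). The transcription factors ETV1, ETV4 and ETV5 had changes of 0.27, -0.08 and 0.07. Changes of FOS, FOSL1, MYC and PHLDA1 were 0.10, -0.03, -0.10 and 0.06, with overlapping groups. Those of SPRED1, SPRED2, SPRED3, IL17RD and DUSP4 were -0.18, -0.03, 0.02, -0.14 and -0.17.

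**Figure D4:**
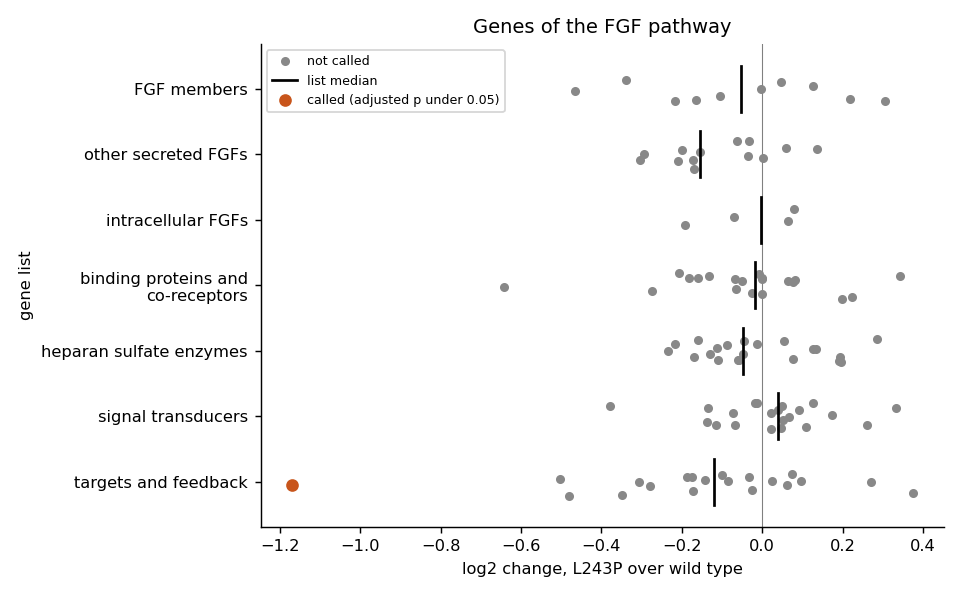
Log2 change of L243P over wild type (horizontal axis) for every measured gene of the 10 FGF genes and of 6 pathway lists (rows), with list medians as vertical bars and the called gene in orange. CCND1, at -1.17, is the single called gene, and the list medians lie between -0.16 and 0.04.

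In the authors' deposited table, FGFR1 has a fold of -1.4, a ratio-based p of 0.0338 and a rank product proportion of false positives (pfp) of 0.622, the smallest pfp of the 10 genes. The authors' deposited table gives FGF5 a fold of -1.3 and a pfp of 0.878. The authors' deposited description selects at a pfp limit of 0.15, which none of the 10 reached. The 3 genes nearest to FGFR1 in pattern, among 10887 genes with a mean of at least 64 in a group, were USO1, LOC137289 and ZNF512. Their Euclidean distances to FGFR1 in centred log2 values over the 4 arrays were 0.030, 0.036 and 0.036. None of the 3 was called (adjusted p = 0.095, 0.19 and 0.14, limma). With only 4 arrays and 10887 genes a close match is easily found, so the likeness shows no link between the genes. USO1 was at 465 and 508 in wild type and 347 and 354 in L243P.

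**Figure D5:**
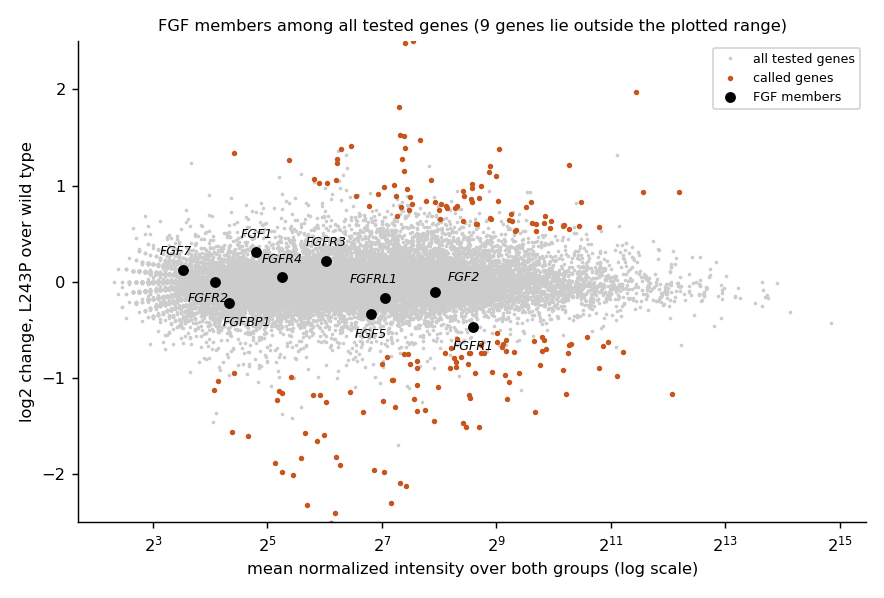
Log2 change of L243P over wild type (vertical axis) against mean normalized intensity over both groups (horizontal, log scale) for all tested genes, with called genes in orange and the 10 FGF genes in black. FGFR1 lies at -0.47 and the other 9 lie between -0.34 and 0.30, and none of the 10 is among the called genes.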

How the data were processed

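The authors' RMA intensities of 4 arrays (2 samples a group) were used. Per the authors' description deposited with the tables, Rosetta Resolver did the background correction, quantile normalization and summarisation, and the submitters' processing notes name RMA. Its version, and the build, were not given in the sources read. The deposited intensity values are linear and rounded to whole numbers. The deposited fold changes, ranks and pfp values are scores, and the deposited p-values are the authors'. Arrays have no counting depth, and their number limits the precision.

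Intensities were log2 transformed. The brightest probe set stood for a gene, and 27533 rows (19555 genes and the unnamed probe sets) were fitted with limma 3.58.1 (R 4.3.3, trend and robust prior, Benjamini-Hochberg adjustment). The fit was run on simulated data whose spread was taken from the brighter rows, so that run does not cover the spread of dim probe sets. The limma fit, the members and the lists were chosen with earlier results of these data known. Symbols and gene order came from RefSeq (GRCh38.p14), and 18201 of 19607 names matched. The genes named were the 10 members and every called pathway gene. In lists with none called, up to 4 genes were also named, those with the largest changes among genes with a mean of at least 64 in a group. The genes of the target list other than CCND1 fell outside this rule. Of these, the Sprouty, phosphatase, EGR1 and ETV genes were singled out after their values were seen, and the rest were added to complete the list. The gene that overlaps FGF2 on the other strand was not analysed here. Alternatives were another prior, centring, a filter, a pseudocount, a replicate block, left-out samples, the value table, averaged probe sets and subtraction of the neighbours' median.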

Additional observations from a re-analysis of the deposited data

How the results depend on the processing

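The count of called FGF genes stayed at 0 of 10 under every alternative except the fit without the dimmer 50% of rows, which called 1 of the 5 members it kept (FGFR1). Over all genes, 189 calls became 505 with median centring, 440 without the dimmer rows, and 0 with limma's default prior (2785 genes at an unadjusted p under 0.05). The 99 pathway genes had 1 call, 2 with median centring (CCND1 and NCAM1) and 0 with the default prior (11 at an unadjusted p under 0.05). With the replicate number as a block, all genes, the FGF genes and the pathway genes had 0 calls each (1637, 2 and 6 at an unadjusted p under 0.05). The deviations of same-numbered samples had r = -0.30 over 12038 brighter rows, and crossing the numbers, a setting chosen after seeing the data, also gave 0, 0 and 0 calls (2537, 1 and 11). The labels do not say that the numbers pair the samples. Leaving out each of the 4 samples gave 0 to 0 calls in all 3 counts (2308 to 3487 genes at an unadjusted p under 0.05), with median prior degrees of freedom of 0.39 to 0.42 against 3.95, so this says nothing about stability. Of 115 values of single FGF genes under alternatives, 106 kept their direction. Many of these could not turn. The other prior, the replicate block, the value table, the averaged probe sets and the filter left each log2 change as it was. FGFR2 turned to 0.028 with median centring. After subtraction of the neighbours' median, FGF2 turned to 0.028, FGFBP1 to 0.056 and FGFRL1 to 0.21. Without single samples, FGFRL1 ranged from -0.34 to 0.011, FGF7 from -0.0050 to 0.26, FGFR4 from -0.13 to 0.22 and FGFR2 from -0.087 to 0.082. FGFR1 ranged from -0.52 to -0.42, FGF5 from -0.43 to -0.25, FGF1 from 0.16 to 0.44 and FGFR3 from 0.09 to 0.34. The cause was not tested. Signals near those of the olfactory receptor genes limit what FGF1, FGF7, FGFBP1 and FGFR2 can show.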
